A study of Mus musculus with 16 samples.

Results

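The Cyp4a cluster on mouse chromosome 4 was examined in H3K27Ac ChIP-seq peak lists from the livers of 15 mice. The members are Cyp4a10, Cyp4a12a, Cyp4a12b and Cyp4a14, and they were read through every peak that touched the NCBI37/mm9 window chr4:114960000-115215000. In this window of 255001 bp the 15 lists held 29 of their 500869 peaks on chromosomes 1 to 19 and X. Overlapping peaks of all animals were merged, which gave 5 regions here out of 56941 in the genome. The window was set by position, around a locus chosen with earlier results of these libraries known.

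Each list came from 1 animal, and each group had 5. WT livers were from mice with the Mdr2-WT genotype, aged 14 to 19 months, whose strain is FVB.129P2 in the labels and FVB/NJ in the study's text. Inflamed livers were from FVB.129P2-Abcb4tm1Bor/J mice, which are Mdr2-KO in every cell and lack the phosphatidylcholine transporter of the bile canaliculus, aged 7 to 8 months. HCC nodules were hepatocarcinoma tissue of Mdr2-KO mice aged 14 to 19 months. All 15 mice had received clodronate liposomes at 50 μg per g of body weight for 48 hours, which depletes macrophages. Inflamed livers were thus younger than both other groups, and age and disease stage cannot be told apart in any comparison with them. All samples were bulk tissue, in which fewer hepatocytes and less acetylation per hepatocyte cannot be told apart.

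Cyp4a enzymes are cytochromes P450 of the endoplasmic reticulum that hydroxylate fatty acids at or next to the terminal carbon, the first step of omega-oxidation. Cyp4a10 and Cyp4a14 are classical targets of the fatty acid receptor PPARA in hepatocytes and are induced by fasting and by fibrates. Cyp4a12a and Cyp4a12b encode near-identical arachidonic acid hydroxylases whose liver expression in mice is stronger in males. Acetylation of histone H3 at lysine 27 marks active promoters and enhancers, so peaks are commonly read as marks of such elements. In the RefSeq gene order of this cluster Cyp4a12a comes first, then Cyp4a12b, Cyp4a14 and Cyp4a10, and all 4 symbols were found in that table. Cyp4a14 and Cyp4a10 are neighbours transcribed away from each other, so that the bases between them are upstream of both. Gene positions in the build of the files were not used here. The stretch chr4:115157990-115169740, a browser view of Cyp4a14, is called the snapshot below.

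A pair of lists stood apart from their groups over the whole genome. The likeness of 2 lists was measured as the Jaccard index, the base pairs under peaks of both divided by those under peaks of either. WT animal 130748 had a mean index of 0.504 to the other WT livers, and the other WT livers had means from 0.665 to 0.705. HCC animal 124711 had a mean of 0.411 to the other nodules, which had means from 0.482 to 0.539. These lists were nearest to each other, at 0.630, but every other nodule was also nearest to a list of another group, at 0.577 to 0.634. Of all 15 lists, theirs also covered the least of the genome, 109 Mb in 130748 and 92.5 Mb in 124711. The part of covered length in the index was not tested. The tests over the window, the Cyp4a14 region and the upper region are therefore also given without this pair. That setting was added after the data were seen. Neither list had a peak in the window, so the setting takes values of 0 bp out of the tests. Peaks on chromosome Y were found in WT animal 134501, with 15, and in HCC animal 124711, with 13, and in no other list. The sex of each animal was not given.

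Acetylation in the cluster was concentrated at its upper end, on the side of Cyp4a14 and Cyp4a10. The Cyp4a14 region, chr4:115164596-115173274, reached into the upper end of the snapshot and carried a peak in 12 of 15 animals, namely all 5 inflamed livers, 4 HCC nodules and 3 WT livers. The upper region, chr4:115183663-115193646, lay wholly above the snapshot and carried a peak in 11 animals, 3 WT livers, 4 inflamed livers and 4 nodules. A middle region between them, chr4:115176028-115178289, had a peak in HCC animal 123206 alone. A lower pair of regions, chr4:114961156-114962544 and chr4:114970505-114972006, had peaks in WT animal 134501 alone. Between the lower pair and the Cyp4a14 region, 192589 bp carried no peak in any animal. By gene order this empty stretch is on the Cyp4a12 side of Cyp4a14. Reads of 36 bp from near-identical gene copies may not be placed, the handling of such reads is not given in the sources used here, and the absence of a peak on that side is therefore uncertain.

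**Figure D1:**
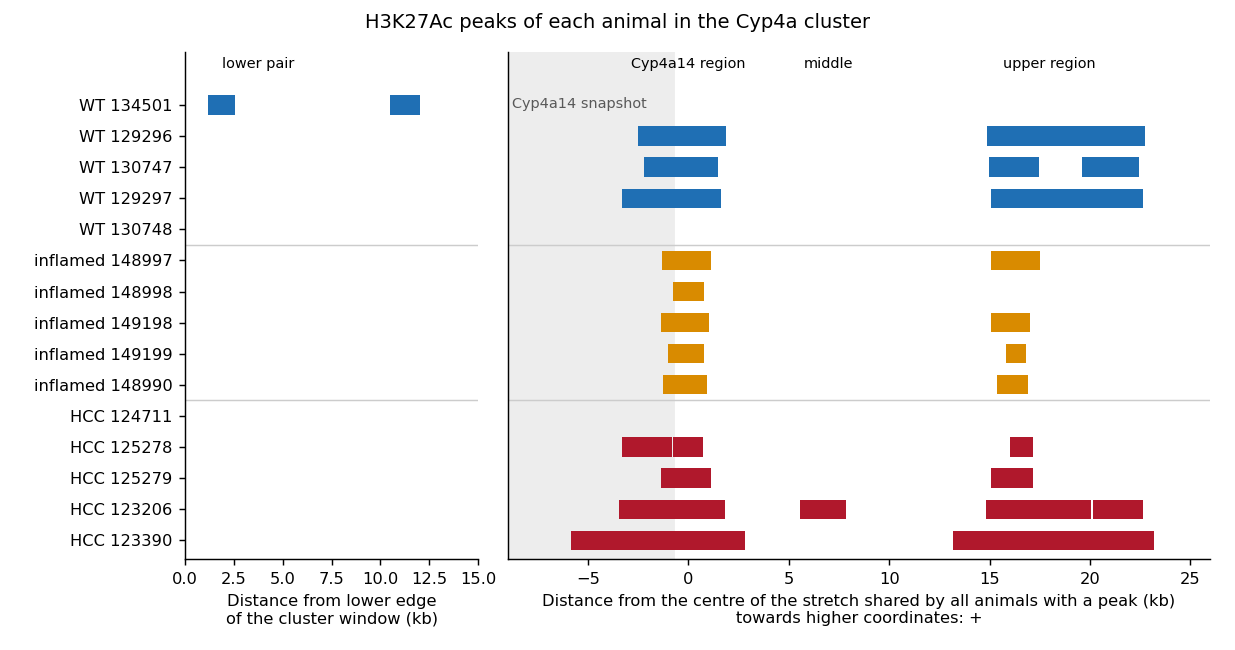
Each bar is 1 H3K27Ac peak, with 1 row per animal; the left panel gives the distance in kb from the lower edge of the cluster window and the right panel the distance in kb from the centre of the stretch shared by 12 animals. Inflamed livers (orange) have short peaks at the Cyp4a14 and upper regions, the bars of 3 WT livers (blue) and 2 HCC nodules (red) cover more of both, in 1 or 2 pieces per region, and WT animal 130748 and HCC animal 124711 have none.

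None of the 5 regions had a peak in all animals of 1 group and in none of another. Of 44697 regions tested for inflamed against WT livers, 6.14% had a peak in all 5 inflamed and no WT livers and 0.508% the opposite. These shares were 0.110% and 1.33% of 54675 regions for HCC nodules against inflamed livers and 0.239% and 0.159% of 52284 regions for nodules against WT livers.

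The Cyp4a14 region was present in every inflamed liver but short there. Peaks covered 2436 bp in inflamed animal 148997, 1543 bp in 148998, 2405 bp in 149198, 1823 bp in 149199 and 2188 bp in 148990. In WT livers they covered 4400 bp in animal 129296, 3688 bp in 130747, 4951 bp in 129297 and 0 bp in both 134501 and 130748. In HCC nodules they covered 8679 bp in animal 123390, 5298 bp in 123206, 4006 bp in 125278, 2498 bp in 125279 and 0 bp in 124711. WT livers thus lay on both sides of the inflamed livers, either without a peak or with a longer one. Of the nodules, 4 were above every inflamed liver and 1 was below. The value of 125278 is the sum of 2 peaks, of 2479 and 1527 bp, and the second, which lies over the bases shared with the other animals, was shorter than every inflamed peak. The 3 animals without a peak were the pair of lists that stood apart and WT animal 134501. By width, peaks here lay at percentiles 6.20 to 28.8 of inflamed, 56.2 to 76.9 of WT and 9.76 to 83.3 of nodule lists.

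The 12 animals with a peak shared a stretch of 1497 bp, chr4:115169712-115171208, of which 29 bp lay inside the upper end of the snapshot and the rest above it. Inflamed peaks reached 0 to 610 bp from this stretch to lower positions, into the snapshot, with a median of 525 bp. In the 3 WT livers with a peak the reach was 1461 to 2579 bp, with a median of 1790 bp, and in the 4 nodules with a peak it was 623 to 5116 bp, with a median of 2638 bp, counting the separate lower peak of 125278. On the other side, away from the snapshot, inflamed peaks reached 45 to 385 bp, WT peaks 730 to 1113 bp and nodule peaks 0 to 2066 bp. The medians on that side were 166 bp in inflamed livers, 875 bp in WT livers and 728 bp in nodules, so that the medians differed more on the snapshot side. The shared stretch starts with the peak of inflamed animal 148998 and ends with that of HCC animal 125278. Their reach of 0 bp on those sides is thus by construction. These ranges leave out animals without a peak and carry no test.

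The upper region was short in every inflamed liver that had it and came in a long and a short form in nodules. Peaks covered 2450 bp in inflamed animal 148997, 1936 bp in 149198, 975 bp in 149199, 1561 bp in 148990 and 0 bp in 148998. In WT livers they covered 7855 bp in animal 129296, 5326 bp in 130747, 7545 bp in 129297 and 0 bp in 134501 and 130748. In HCC nodules they covered 9984 bp in animal 123390, 7683 bp in 123206, 2065 bp in 125279, 1150 bp in 125278 and 0 bp in 124711. The 3 WT livers with a peak and 2 of the nodules were above every inflamed liver, and the other nodules with a peak were within the inflamed range. Over the whole list the median peak width was 3972 bp in 123390 and 3480 bp in 123206. It was 3107 bp in 125279 and 2818 bp in 125278. Medians were 2791 to 3197 bp in inflamed lists and 2890 to 3809 bp in WT lists, with 3190 bp in 129297. By width, peaks here lay at percentiles 0.341 to 27.1 of inflamed, 23.4 to 89.8 of WT and 2.43 to 86.6 of nodule lists. The part of list-wide width in these lengths was not tested.

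The bases shared by all 11 animals with a peak, chr4:115186465-115187276, lay at the lower end of the upper region. Below them the lengths reached by the 3 groups overlapped or adjoined, 927 to 1129 bp in WT livers, 163 to 954 bp in inflamed livers and 0 to 2802 bp in nodules. Above them, by gene order the direction of Cyp4a10, the reach was 5628 to 5914 bp in WT livers and 0 to 684 bp in inflamed livers. In nodules it was 6370 bp in animal 123390 and 5806 bp in 123206, against 338 bp in 125278 and 328 bp in 125279. The shared bases start with the peak of 125278 and end with that of inflamed animal 149199. Their reach of 0 bp on those sides is thus by construction. The upper 5686 bp of the region, chr4:115187961-115193646, begin after the last base under any inflamed peak, so that inflamed livers have 0 bp there by construction. In this stretch peaks covered 5230 bp in WT animal 129296, 2821 bp in 130747 and 5122 bp in 129297, and 5686 bp in HCC animal 123390 and 4985 bp in 123206. All other animals had 0 bp there. In WT animal 130747 the part covered here was a separate peak, starting at 115190084. In HCC animal 123206 the peak over the shared bases ran into this stretch, up to 115190499, and a separate peak started at 115190637.

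**Figure D2:**
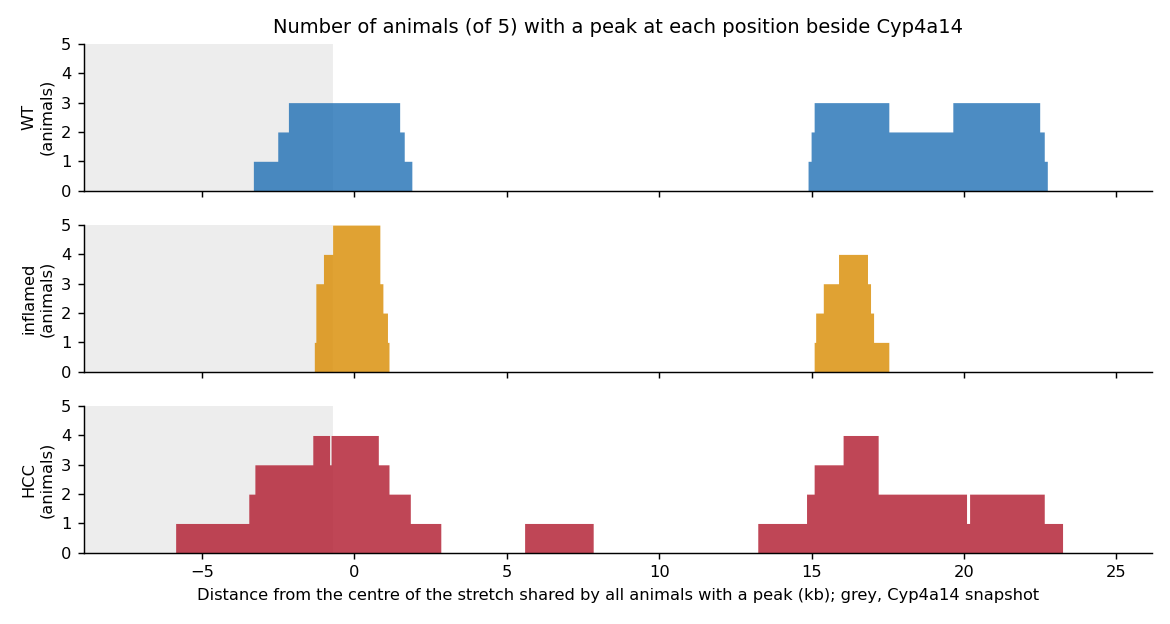
For each group the height gives the number of animals, out of 5, with a peak at that position, against the distance in kb from the centre of the stretch shared by 12 animals; grey marks the Cyp4a14 snapshot. The inflamed profile has 2 narrow blocks, and the upper end of the upper region is filled in up to 3 WT livers and up to 2 HCC nodules and in no inflamed liver.

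Inflamed peaks also ranked low by score, although the order of animals by score was not that by length. The score is the value MACS gave each peak, and it was turned into a percentile within the list of the animal because the scale depends on depth. At the Cyp4a14 region inflamed peaks lay between percentiles 12.8 and 35.9 of their lists and WT peaks between 60.2 and 69.9. The best nodule peak there was at percentile 94.7 in HCC animal 123390, 80.3 in 123206, 56.0 in 125279 and 28.1 in 125278. All 3 WT peaks and 3 of these nodule peaks thus ranked above every inflamed peak, and 125278 was within the inflamed range. These ranks leave out the animals without a peak. How often peaks of other regions in the genome ranked in this way was not computed. At the upper region inflamed peaks lay between percentiles 1.25 and 33.5, and the best peak of the 3 WT livers was at 54.9, 45.7 and 67.6. The best nodule peak was at 78.8 in 123390 and 59.9 in 123206, and at 29.2 in 125279 and 12.0 in 125278. Length and score come from the same peak call and are not independent readouts.

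**Figure D3:**
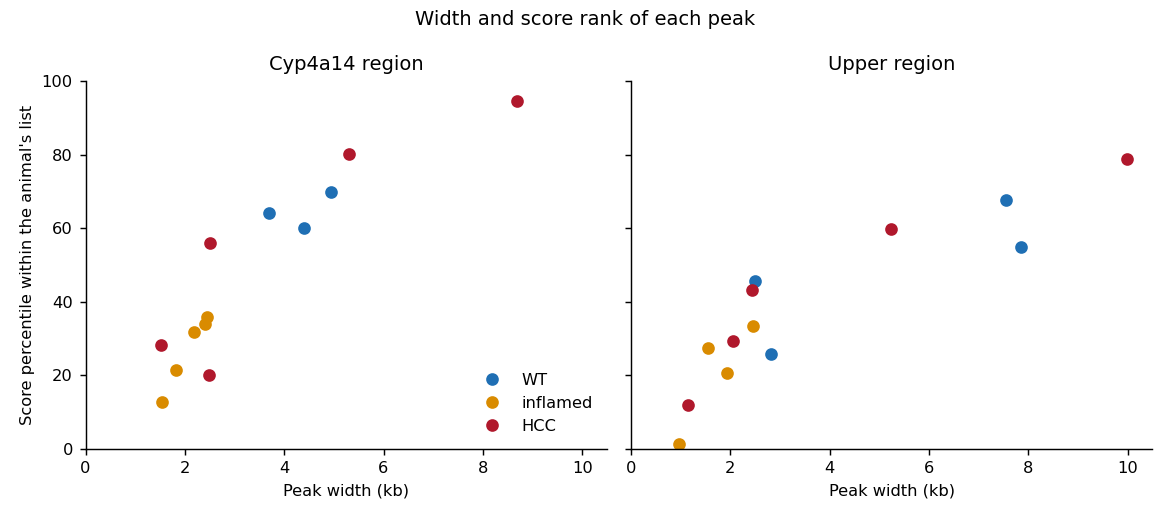
Each dot is 1 peak, placed by its width in kb and by the percentile of its score within the list of its animal, for the Cyp4a14 region (left) and the upper region (right). Inflamed peaks (orange) sit in the lower left corner of both panels, none above percentile 35.9, and the peaks of HCC animal 123390 are the widest and highest ranked.

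Because inflamed peaks ranked low, their presence depended on how much of each list was kept. In the top 50% of each list by score, the Cyp4a14 region had a peak in 3 WT livers, 0 inflamed livers and 3 nodules, and the upper region in 2, 0 and 2. With lists of equal length, each keeping its 26375 highest scores, the Cyp4a14 region had a peak in 3 WT livers, 2 inflamed livers and 3 nodules and the upper region in 3, 2 and 2. Inflamed lists were long, with 35901 to 40909 peaks, against 26375 to 30268 in WT livers and 26683 to 42736 in nodules. The depth of each library is unknown, and its part in these ranks was not tested.

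The lower pair behaved apart from the rest of the cluster. The peak at chr4:114961156-114962544 was 1389 bp long and at percentile 1.74 of its list, and that at chr4:114970505-114972006 was 1502 bp long and at percentile 21.4. Both belonged to WT animal 134501, which had no peak at the Cyp4a14 or upper region and had the most chromosome Y peaks, 15. HCC animal 124711, with 13 chromosome Y peaks, had no peak anywhere in the window, and neither had WT animal 130748, with none on chromosome Y. The part of sex in the presence of either set of peaks was not tested. The middle region of HCC animal 123206 was 2262 bp long and at percentile 35.8 of its list.

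The Cyp4a14 and upper regions varied together. Over the 15 animals, WT, inflamed and HCC alike, the covered lengths of the pair had a Pearson r of 0.903 and a Spearman rho of 0.926. The points share their libraries, including the 3 animals with 0 bp at both. In the genome 1563 regions had a peak in 12 of 15 animals, and in 138 of them (8.83%) it was missing from the same 3 animals as at the Cyp4a14 region. Among the 1563 regions, HCC animal 124711 lacked 64.7%, WT animal 130748 51.1% and WT animal 134501 28.1%. HCC animal 123206 lacked 42.5% and 123390 32.4%, yet both had the Cyp4a14 region. Each inflamed liver lacked between 1.92% and 4.93%.

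Over the whole window the mean length under peaks was 3463 ± 1323 bp for inflamed livers, 7331 ± 5639 bp for WT livers and 8725 ± 7865 bp for nodules (SD, n = 5 per group). Single WT livers had 12496 bp in animal 129297, 12255 bp in 129296, 9014 bp in 130747, 2891 bp in 134501 and 0 bp in 130748. Inflamed livers had 4886 bp in animal 148997, 4341 bp in 149198, 3749 bp in 148990, 2798 bp in 149199 and 1543 bp in 148998. Nodules had 18663 bp in animal 123390, 15243 bp in 123206, 5156 bp in 125278, 4563 bp in 125279 and 0 bp in 124711. The inflamed livers were the most alike of the 3 groups, and both other groups overlapped them. The genome was divided into windows of the same width, of which 7454 held a peak in any animal. Among these the mean of the cluster exceeded 27.4% of windows for inflamed livers, 47.3% for WT livers and 46.6% for nodules. The number of peaks was 1.80 ± 0.447 per inflamed liver, 1.80 ± 1.10 per WT liver and 2.20 ± 1.48 per nodule (SD, n = 5 per group).

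**Figure D4:**
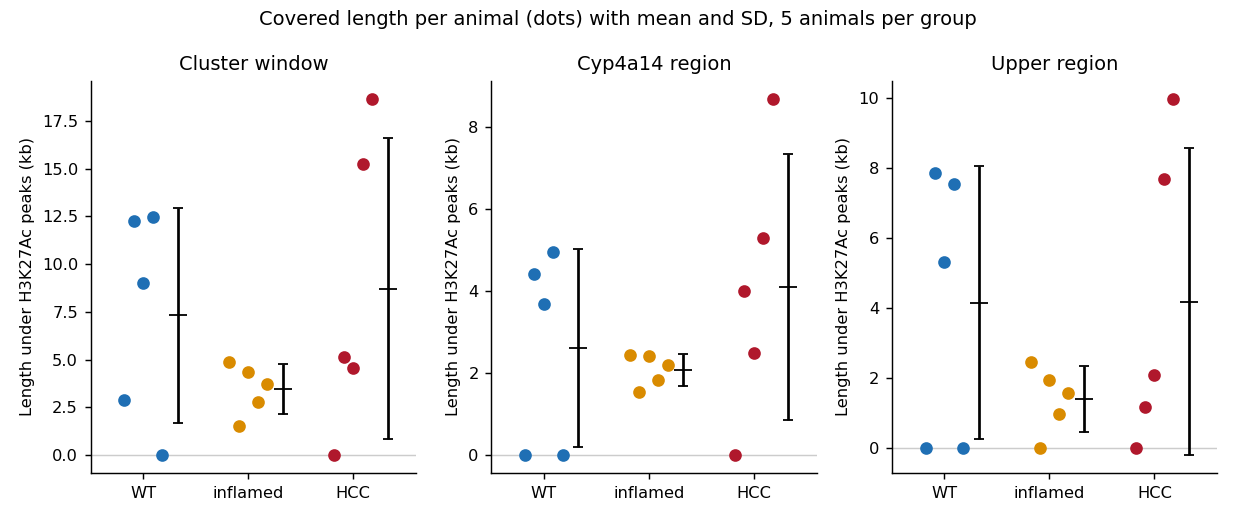
Dots give the length in kb under H3K27Ac peaks in each animal, for the whole cluster window (left), the Cyp4a14 region (middle) and the upper region (right); black marks give the mean and SD of 5 animals. Inflamed livers lie close together, and WT livers and HCC nodules each spread from 0 to values above all inflamed livers.

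Whether length under peaks differed between inflamed and WT livers was asked first. The mean over the window, inflamed minus WT, was -3868 bp, with overlapping values (exact permutation test, two-sided, p = 0.175, adjusted p = 0.305 over 7032 windows). By the same test 21.1% of these windows were higher and 3.31% lower in inflamed livers at an adjusted p under 0.05. The mean was lower in inflamed livers in 35.4% of the windows. At the Cyp4a14 region the difference was -529 bp (exact permutation p = 0.627, adjusted p = 0.883 over 44697 regions), and at the upper region it was -2761 bp (exact permutation p = 0.183, adjusted p = 0.384). None of the 4 cluster regions with a peak in these animals passed an adjusted p of 0.05 or an unadjusted one, while 12.0% of all regions were higher and 3.92% lower at the adjusted threshold and 21.7% and 9.49% at the unadjusted one. Without WT animal 130748 and HCC animal 124711, the window differed by -5701 bp (exact permutation p = 0.0397, adjusted p = 0.0859), the Cyp4a14 region by -1181 bp (exact permutation p = 0.270, adjusted p = 0.429) and the upper region by -3797 bp (exact permutation p = 0.0794, adjusted p = 0.173). Without WT animal 129297 the direction at the Cyp4a14 region turned, to 57 bp more in inflamed livers, and without 129296 the difference there was -80.8 bp. The difference at the upper region was -1833 bp without 129296. How much of each list was kept also moved the Cyp4a14 difference, to -1683 bp in lists of equal length and -2608 bp in the top 50%. The number of peaks in the window had the same mean in both groups (exact permutation p = 1, adjusted p = 1); without the pair of lists the difference was -0.45 peaks (exact permutation p = 0.556, adjusted p = 0.696).

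HCC nodules had 5262 bp more under peaks in the window than inflamed livers, again with overlapping values (exact permutation test, two-sided, p = 0.246, adjusted p = 0.663 over 7349 windows). No window of the genome passed an adjusted p of 0.05 in this comparison, and at an unadjusted p under 0.05 the permutation test had 4.37% of windows higher and 13.0% lower in nodules. The mean was higher in nodules in 47.7% of the windows. At the Cyp4a14 region nodules had 2017 bp more (exact permutation p = 0.190, adjusted p = 0.731 over 54675 regions), and 12.6% of all regions differed by at least as much in either direction. At the upper region they had 2792 bp more (exact permutation p = 0.302, adjusted p = 0.941), and 6.59% of all regions differed by at least as much. Neither of these nor the middle region passed an unadjusted p of 0.05, which 3.15% of all regions did with a higher and 9.58% with a lower mean in nodules.

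HCC animal 124711 decided how far nodules and inflamed livers overlapped at the Cyp4a14 region. Without it the 4 nodules had 2498 to 8679 bp and the 5 inflamed livers 1543 to 2436 bp, a difference of 3041 bp with no overlap (exact permutation p = 0.00794, the lowest possible for groups of 4 and 5, adjusted p = 0.120). The lack of overlap rests on adding up both peaks of 125278, since its peak of 1527 bp alone is below the inflamed range. The lowest nodule by summed length was 125279, with 62 bp more than the highest inflamed liver. With the same 9 animals 3.43% of 53472 regions were higher in nodules without overlap and 4.19% lower. Without animal 124711 the window differed by 7443 bp (exact permutation p = 0.0159, adjusted p = 0.115) and the upper region by 3836 bp (exact permutation p = 0.0794, adjusted p = 0.378). Without animal 123390 the nodules had 872 bp more at the Cyp4a14 region, 1340 bp more at the upper region and 2777 bp more over the window. Nodules had 0.4 more peaks than inflamed livers (exact permutation p = 0.794, adjusted p = 1), 0.95 more without 124711 (exact permutation p = 0.119, adjusted p = 0.534) and -0.05 without 123206.

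HCC nodules and WT livers overlapped throughout. The mean over the window was higher in nodules by 1394 bp (exact permutation test, two-sided, p = 0.754, adjusted p = 1 over 7214 windows), the Cyp4a14 region by 1488 bp (exact permutation p = 0.476, adjusted p = 1 over 52284 regions) and the upper region by 31.2 bp (exact permutation p = 0.976, adjusted p = 1). No region or window of the genome passed an adjusted p of 0.05 in this comparison, and at an unadjusted p under 0.05 the permutation test had 3.99% of regions higher and 3.59% lower in nodules, with none of the 5 cluster regions among them. Without WT animal 130748 and HCC animal 124711 the window differed by 1742 bp (exact permutation p = 0.686, adjusted p = 0.948), the Cyp4a14 region by 1860 bp (exact permutation p = 0.400, adjusted p = 0.904) and the upper region by 39.0 bp (exact permutation p = 0.971, adjusted p = 1). The direction at the upper region turned in lists of equal length (-612 bp), in the top 50% of each list (-35.8 bp), and without WT animal 134501 or 130748 (-1005 bp each), HCC animal 123206 (-845 bp) or HCC animal 123390 (-1421 bp). At the Cyp4a14 region the difference was 343 bp without HCC animal 123390 and 836 bp without WT animal 134501 or 130748, and it was 687 bp both in lists of equal length and in the top 50% of each list. The direction over the window turned in lists of equal length (-50.4 bp). It also turned without WT animal 130748 (-439 bp), HCC animal 123206 (-236 bp) or HCC animal 123390 (-1091 bp). The window difference was 284 bp without WT animal 134501 and 651 bp in the top 50% of each list. The number of peaks was 0.4 higher in nodules (exact permutation p = 0.833, adjusted p = 1) and 0.5 higher without the pair of lists (exact permutation p = 0.714, adjusted p = 1). Its direction turned in lists of equal length (-0.4 peaks) and without WT animal 130748 or HCC animal 123206 (-0.05 peaks each). These p-values do not show that nodules and WT livers are alike, since values in both groups ran from 0 bp to 12496 bp or more.

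The regions elsewhere in the genome whose covered length ran most like that of the window were sought among 32390 regions with a peak in at least 5 animals. The 3 with the highest Pearson r over the 15 animals were chr15:10128040-10162019 (r = 0.954, Spearman rho = 0.888), chr19:27501129-27508027 (r = 0.940, rho = 0.786) and chr4:133736357-133744501 (r = 0.936, rho = 0.676). Each had a peak in all 15 animals. The window values included 0 bp in WT animal 130748 and HCC animal 124711, so that length and presence of peaks were not separated. Lower in the same ranking, chr2:63915008-63919185 (r = 0.926, rho = 0.943) had a peak in 11 animals, 3 WT livers, 4 inflamed livers and 4 nodules. These are descriptions chosen from many regions of the same libraries.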

How the data were processed

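H3K27Ac ChIP-seq libraries, sequenced as 36 bp single reads, were made by the authors from the liver tissue of 15 mice, 5 in each of the WT, inflamed and HCC groups. The submitters' processing notes name Bowtie 0.12.7, MACS 1.4 and mm9. The deposited lists give the position of each peak and its MACS score, called per animal; the control and the filters are not given in the sources used here. The IgG sample was not analysed here.

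Groups and animal numbers came from the sample titles. Overlapping or adjoining peaks on chromosomes 1 to 19 and X were merged over all animals, and an overlap of 1 bp made a region occupied. Differences between group means, in base pairs under peaks and in numbers of peaks, were tested by exact permutation, two-sided, on every merged region and on every genome window of 255001 bp with a peak in the animals compared, with Benjamini-Hochberg adjustment over all of them. With 5 animals against 5 the smallest p is 0.00794. Score percentiles place ties at the middle of their ranks. Regions were described animal by animal where at least 5 animals had a peak. Alternatives were the top 50% of each list, equal lists, leaving out each animal, the window extended by 10000 bp on each side, values relative to the whole list, bins of 1000 bp counted as occupied from 500 bp, a minimum of 50% of a region, and at least 4 animals against at most 1. Leaving out the pair of lists that stood apart, or both animals with chromosome Y peaks, was added after the data were seen. The study's own principal component plot of these libraries left out some as outliers without naming them; all lists were kept in the main tests here, and whether the pair is the same libraries is not known. The members and rules were chosen with earlier results of these data known. Other genes of the family, PPARA targets and cell type markers were listed but not examined, because gene positions of this build were not used here, and the tissue labels were not checked against markers. Python 3.11.15, NumPy 2.4.6 and matplotlib 3.10.9 were used.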

Additional observations from a re-analysis of the deposited data

Results flagged for a closer look

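In the cluster, 12 groups of 5 values were searched for a lone high or low animal; 1 was found. The search is built to find about 1 in 20 groups by chance, a rate that does not hold for tied counts of peaks such as these, where any single animal that differs is found. Inflamed animal 148998 had 1 peak in the window where the other 4 inflamed livers had 2 each. It lacked the upper region, and its Cyp4a14 peak was the shortest of the inflamed livers, at 1543 bp and percentile 12.8 of its list.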

How the results depend on the processing

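Depth is unknown, and the files limit each animal to the presence, length and score rank of its peaks. Of the values recomputed for the cluster under other settings, 15 differences turned direction, 11 of them on leaving out 1 animal, 148 kept it and 1 became 0. The difference in peaks between inflamed and WT livers, 0 with all data, had no direction to keep in 16 settings, and gave -0.45 to 0.3 on leaving out 1 animal and -1 in equal lists. The other 93 values were counts of regions, 0 throughout; no result passed an adjusted p of 0.05 under any setting run. For HCC nodules against WT livers, equal lists gave -50.4 bp over the window, -612 bp at the upper region and -0.4 peaks, and the top 50% of each list gave -35.8 bp at the upper region and 651 bp over the window. For nodules against inflamed livers the top 50% gave 3295 bp at the Cyp4a14 region. For nodules against WT livers, leaving out 1 animal gave -1091 to 3575 bp over the window, -1421 to 1075 bp at the upper region and -0.05 to 0.95 peaks. It gave -1181 to 57.0 bp at the Cyp4a14 region for inflamed against WT livers and -0.05 to 0.95 peaks for nodules against inflamed livers. At the Cyp4a14 region it gave 343 to 2512 bp for nodules against WT livers, and at the upper region 1340 to 3836 bp for nodules against inflamed livers and -3797 to -1833 bp for inflamed against WT livers. Over the window, leaving out 1 animal gave -5701 to -2577 bp for inflamed against WT livers and 2777 to 7443 bp for nodules against inflamed livers. For nodules against WT livers, the upper region turned without WT animal 134501 or 130748 or HCC animal 123206 or 123390, and the number of peaks without WT animal 130748 or HCC animal 123206; the cause was not tested. Without both animals with chromosome Y peaks, the window differed by -4978 bp for inflamed against WT livers (exact permutation p = 0.119). In that setting it differed by 7443 bp for nodules against inflamed livers (exact permutation p = 0.0159). For nodules against WT livers it differed by 2465 bp (exact permutation p = 0.629) and by 1 peak (exact permutation p = 0.457). No paired analysis was possible because the groups share no animal numbers.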

Other observations

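The nearest regions outside the window were chr4:114954988-114959203, 1952 bp below the lower pair, and chr4:115217292-115219314, 23645 bp above the upper region. The lower of them had a peak in WT animal 134501 alone, the animal that alone had the lower pair. The higher had a peak in WT animals 129296 and 130747, and neither had a peak in any inflamed liver or HCC nodule. With the window extended by 10000 bp on each side, the mean length under peaks, inflamed minus WT, was -5841 bp (exact permutation test, two-sided, p = 0.0556), HCC minus inflamed was 5857 bp (exact permutation p = 0.151) and HCC minus WT was 15.6 bp (exact permutation p = 1), against 1394 bp in the window itself, with no adjustment of these p-values and with all animals kept.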
